A study of Mus musculus with 42 samples.

Results

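Neurons cut by laser from the dorsal root ganglion (DRG) of BALB/c mice were compared with the whole ganglion. The comparison rested on 10 of the 42 samples of the series, chosen by their titles: 5 samples of captured neurons and 5 of whole DRG, all on the Affymetrix MG-U74Av2 array. Each captured sample held about 150 cells, which the study calls visceral sensory neurons, without stating in the sources used here how such cells were recognised. The labelled RNA, about 12 µg per sample, was amplified RNA for the captured neurons and total RNA for the whole ganglia. BALB/c is an inbred laboratory strain, and all groups were kept under normal standard housing with no treatment or altered allele named; the sources used here give neither age nor sex. Each description speaks of laser capture, whereas the extraction text of the whole-ganglion group names whole ganglia; that text was followed. Cell isolation, amplification and the position along the transcript that the labelled RNA covers changed together between the groups, so their parts in any difference cannot be told apart. The captured and whole samples share no sample number, and no label ties the samples to different animals; the p-values thus reflect sample-to-sample spread that may be technical. Captured (n = 5) and whole (n = 7) nodose ganglion (NG) samples on the same array type were fitted together with them and served to set the DRG difference beside a second ganglion. All groups share a common estimate of spread for each probe set. The SEs and adjusted p-values of DRG therefore also reflect spread among the NG arrays.

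Spinal sensory neurons have their cell bodies in the DRG. Each cell body is wrapped by satellite glial cells, its axon is ensheathed by Schwann cells, and fibroblasts, vessels and macrophages lie between the neurons. Small-diameter neurons carry pain, temperature and itch and often make neuropeptides, whereas large-diameter neurons carry touch and position sense. A whole ganglion contributes RNA of all these cells. A laser-cut neuron brings its own RNA and that of whatever glia adhere to it. In such samples, fewer cells of a type and less RNA per cell cannot be told apart.

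Signals are intensities scaled to the same trimmed mean on every array. Before scaling, the mean of an array after trimming 2% at each end lay between 286 and 344.5 in whole ganglia and between 188.2 and 274.5 in captured neurons. On the log2 scale, arrays correlated at 0.974 to 0.983 within whole ganglia, at 0.965 to 0.976 within captured neurons and at 0.882 to 0.925 between the groups. Control probe sets that read the 5′ end, the middle and the 3′ end of one transcript set the groups apart. For beta actin, the 5′ probe set averaged 1222 ± 29.7 (SD, n = 5) in whole ganglia and 109 ± 13.6 in captured neurons, whereas the 3′ probe set averaged 8534 ± 486 and 4826 ± 860. The log2 ratio of 3′ over 5′ signal was 2.80 ± 0.08 in whole ganglia and 5.45 ± 0.18 in captured neurons (exact permutation p = 0.00794, two-sided, the smallest that 5 against 5 arrays can give; adjusted p = 0.0132 over 5 controls). For Gapdh it was 5.33 ± 0.12 and 6.96 ± 0.38 (exact permutation p = 0.00794, adjusted p = 0.0132). Pyruvate carboxylase went the other way, from 2.99 ± 0.35 to 2.12 ± 0.43, with the same p. For 18S ribosomal RNA it was 0.10 ± 0.36 and 0.75 ± 0.27 (exact permutation p = 0.0238, adjusted p = 0.0298), and for the transferrin receptor 0.99 ± 0.38 and 1.78 ± 1.06 (exact permutation p = 0.206, adjusted p = 0.206). The ratio was thus higher in captured neurons for 3 controls, lower for 1 and not called for 1, and its part in the differences given here was not tested.

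**Figure D1:**
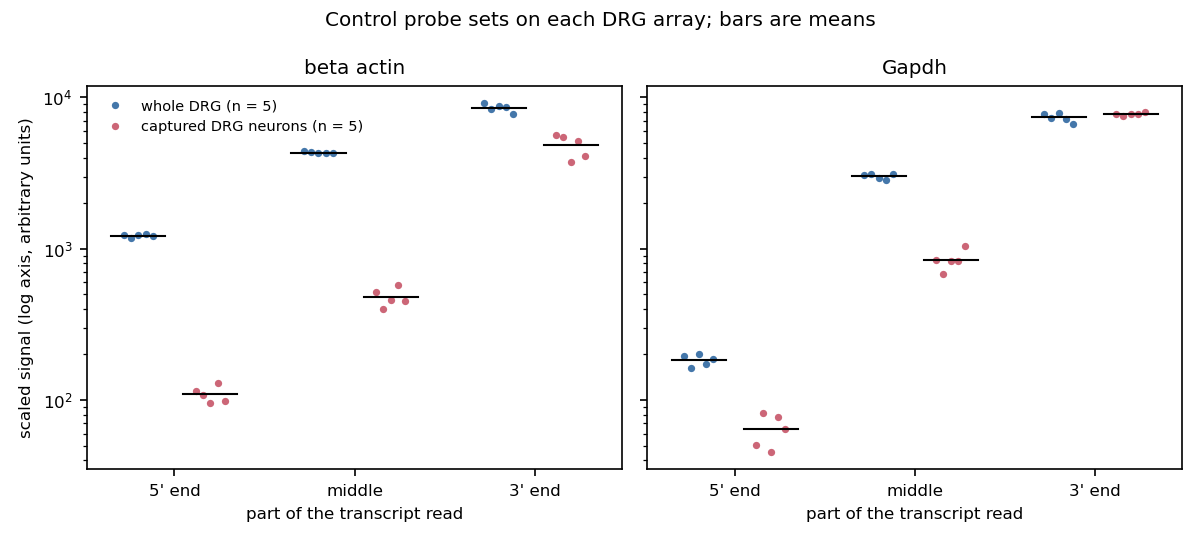
Scaled signal of the beta actin and Gapdh control probe sets for the 5′ end, the middle and the 3′ end of the transcript (log axis) on the 5 whole DRG arrays and the 5 captured arrays; points are arrays and bars are means. The 5′ beta actin signals of captured neurons lie at 96 to 130, against 1175 to 1257 in whole ganglia, while the Gapdh 3′ signals of both groups overlap.

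Of 8309 probe sets tested, 1903 (22.9%) were higher in captured neurons and 2017 (24.3%) were lower, at an adjusted p under 0.05 in limma. Taking for each gene the probe set with the highest mean signal, 1433 of 6261 genes (22.9%) were higher and 1591 (25.4%) were lower. The lower genes reached further: 93 of them were at least 4-fold lower, whereas 11 genes were at least 4-fold higher. The signals of the 5 captured and 5 whole arrays did not overlap for 2403 genes (38.4%), among them 1050 of the genes called higher and 1233 of those called lower. The median log2 difference (captured minus whole) of all genes was 0.007. Fold values are on the scale of log2(signal + 11.37), which understates differences of dim genes. Of 1078 genes read by several probe sets, 98 (9.09%) had probe sets called in opposite directions, so a single probe set does not fix a gene's direction. Probe sets with the highest identifiers, 161002 to 162504, stood apart: 33.2% of 774 were higher and 4.52% were lower, against 21.8% and 26.3% of the other 7535. Genes named here that were read on this block are pointed out.

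Among genes that were bright in at least 1 group and did not overlap, the gene furthest above whole ganglion was Cd1d1, which encodes a lipid-presenting molecule related to MHC class I. Its signals were 50.1, 83.4, 68.9, 58.7 and 58.6 in whole ganglia and 582, 418, 477 and 575 on captured arrays 003, 008, 010 and 014, with array 006 higher still, a 7.4-fold difference (log2 difference 2.89, SE 0.220, adjusted p = 1.3e-10). The matrix proteoglycan Vcan (log2 difference 2.68, SE 0.462), the ganglioside synthase St3gal5 (2.45, SE 0.177) and the germ-cell gene Dppa2 (2.51, SE 0.267) followed. St3gal5, which makes the ganglioside from which the complex gangliosides of nerve cell membranes derive, averaged 261 ± 33.0 in whole ganglia and 1481 ± 189 in captured neurons. Also higher were Rasd1, a small GTPase (2.29), Ifi35 (2.18), Shroom3, an actin-binding protein (2.17), Ifngr2, a chain of the interferon gamma receptor (2.08), Gfra3 (2.04) and the desmosomal protein Pkp2 (1.995). Rpn1, a subunit of the oligosaccharyltransferase of the endoplasmic reticulum, was higher by both of its probe sets, at 2.41 by the one of the high-identifier block and 0.79 by the other. Pithd1 was 1.91 higher by its brighter probe set, of the same block, and differed by -0.01 (adjusted p = 0.969) by the other.

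The largest fall was that of Sparcl1, which encodes a secreted matrix protein of glial and vascular cells. Its signals were 909, 998, 937, 988 and 1192 in whole ganglia and 46.2, 35.1, 54.1, 72.1 and 37.5 in captured neurons (log2 difference -4.10, SE 0.193, adjusted p = 4.86e-14). Each whole array read more than 10-fold above each captured array. Among matrix genes, the small proteoglycan Ogn (-3.35), Sparc (-2.99), the basement membrane proteoglycan Hspg2 (-2.93) and the collagen chain Col1a2 (-2.89) were also among the 12 lowest, as was Egr2, the transcription factor of Schwann cell myelination (-3.01). The others of the 12 were genes of no single cell type: Bzw1 (-3.53), the cargo receptor Cnih1 (-3.41), Tlcd4 (-3.29), the protein kinase C substrate Marcks (-2.99), the translational regulator Cpeb2 (-2.84, read on the high-identifier block) and Septin7, a cytoskeletal GTPase (-2.82). Cnih1 was tight within each group, 2742 to 3132 in whole ganglia and 227 to 292 in captured neurons.

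General neuronal genes went both ways. Of 34 tested, 15 were higher in captured neurons, 9 were lower and 10 were not called, against 22.9% higher and 25.4% lower among all genes, and their median log2 difference was 0.07. With the high-identifier block left out, 13 were higher and 10 lower and the median was -0.015. Summed over the list, the signal of captured arrays was 1.1 to 1.2 times the mean of the whole arrays, and the groups' sums did not overlap. Bright members weigh most in such a sum, so it does not describe a typical member of a list. The adhesion molecule Ncam1 was higher by both of its probe sets (log2 differences 1.11 and 1.17). Gap43, the growth cone protein, read 2166, 2070, 2163, 2668 and 2104 in whole ganglia and 4884, 5245, 3858, 4643 and 4168 in captured neurons (log2 difference 1.02, SE 0.106, adjusted p = 1.74e-08). Every captured array stood above every whole array. The RNA-binding protein Celf4 (1.10) and the endosomal protein Nsg1 (1.08) were also higher.

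Other pan-neuronal genes were lower in the captured neurons. Uchl1, a ubiquitin hydrolase that is a standard marker of neurons, read 4286, 3845, 3462, 3839 and 4110 in whole ganglia and 1814, 1725, 2039, 1964 and 1585 in captured neurons (log2 difference -1.10, SE 0.111, adjusted p = 1.3e-08). All captured arrays were below all whole arrays. Isl1, the homeobox factor of sensory neurons, fell from 313 ± 41.0 to 102 ± 29.2 (-1.54, SE 0.192). The granin-family protein Scg3 (-1.77), the RNA-binding protein Elavl2 (-1.52) and Nsg2 (-1.30) were lower too; Scg3 differed by -0.04 (adjusted p = 0.806) by its other probe set. Tubb3, the neuronal beta tubulin, averaged 6400 ± 435 and 6159 ± 673 (log2 difference -0.06, adjusted p = 0.593; its other probe set, of the high-identifier block, was called higher, at 0.23 with adjusted p = 0.0379), and the synaptosomal protein Snap25 5160 ± 483 and 4196 ± 424 (-0.30, adjusted p = 0.0583). Under quantile normalization Tubb3 (-0.26) and Snap25 (-0.52) were called lower. Snap25 was also called lower in the DRG arrays alone (adjusted p = 0.00847) and with the filter at the 60th percentile (adjusted p = 0.049). The same held without whole array 026 or captured array 014. Prph, the intermediate filament of small sensory neurons, was higher by its brighter probe set, of the high-identifier block (0.46, adjusted p = 0.00033), and lower by the other (-0.54, adjusted p = 2.18e-05), so its direction is not settled.

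**Figure D2:**
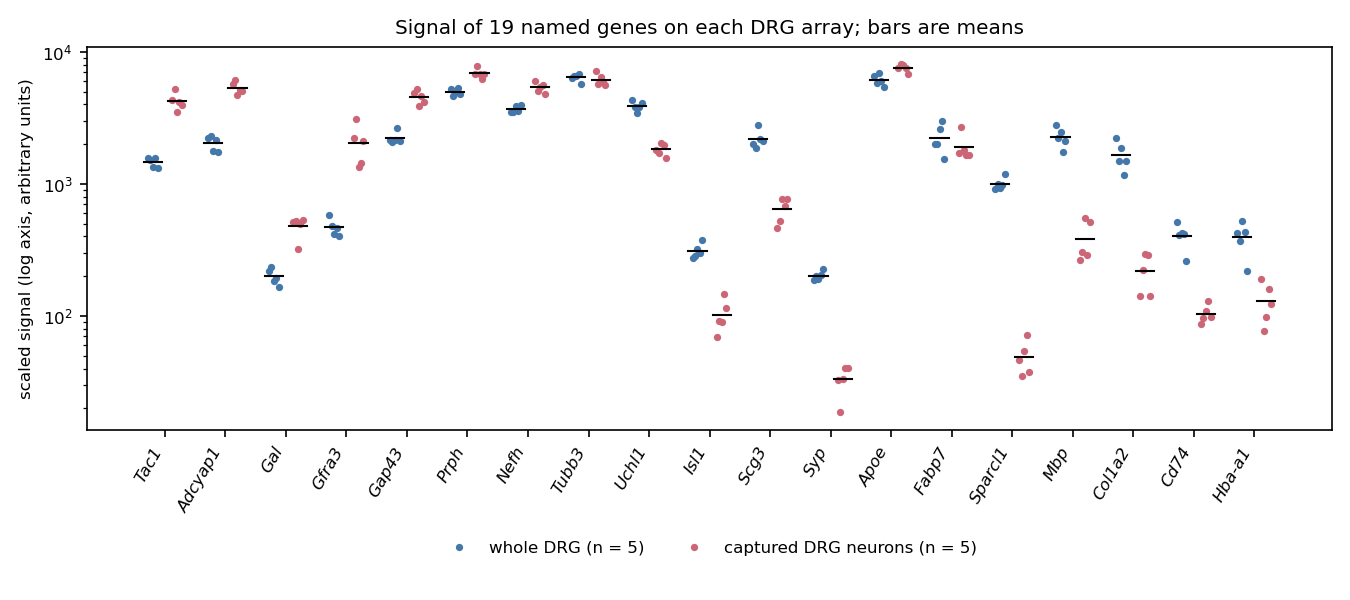
Scaled signal (log axis) of 19 named genes on the 5 whole DRG arrays and the 5 captured arrays; points are arrays and bars are group means. The peptide genes Tac1, Adcyap1 and Gal lie higher in captured neurons, the neuronal genes go both ways, and Sparcl1, Mbp, Col1a2 and Cd74 lie lower without overlap.

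Neuropeptides and the proteins that package and process them had a median of 0.488 on the log2 scale over 17 genes, close to the 0.469 of the injury list. Without the high-identifier block the injury list was above the peptide list (0.489 against 0.453). Of the 17, 6 were higher (35.3%, against 22.9% of all genes), 4 were lower (23.5%, near the 25.4% of all genes) and 7 were not called. The summed signal of the peptide list in captured neurons was 1.38 to 1.5 times the whole-ganglion mean. Bright members weigh most in this sum, among them Tac1 and Adcyap1. Tac1, the precursor of substance P, read 1566, 1513, 1335, 1585 and 1309 in whole ganglia and 4338, 5187, 3514, 4179 and 3971 in captured neurons (log2 difference 1.52, SE 0.390, adjusted p = 0.00243). The lowest captured array was more than 2-fold above the highest whole array. The log2 SD of Tac1 was 0.13 in whole and 0.204 in captured DRG. Its SE also reflects the NG arrays, where captured Tac1 averaged 338 ± 280. Adcyap1, the precursor of the peptide PACAP, was at 1753 to 2289 in whole ganglia and at 4701 to 6071 in captured neurons (1.39, SE 0.170, adjusted p = 2.63e-07). Gal, the precursor of galanin, was at 166 to 237 and at 319 to 535 (1.20, SE 0.175, adjusted p = 3.52e-06), and its dim second probe set gave 0.51 (adjusted p = 0.077). The prohormone convertase Pcsk1, which cleaves peptide precursors, rose from 158 ± 32.6 to 323 ± 64.4 (0.99, SE 0.163). The granins Chga (0.85, SE 0.149) and Chgb (0.57, SE 0.109), which fill dense-core vesicles, were higher as well.

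The members that were lower include Pam, the enzyme that amidates peptides at the C terminus (-1.81, from 126 ± 45.98 to 27.7 ± 11.5), Scg3 (-1.77), Penk, the enkephalin precursor (-0.70), and Nppb, the natriuretic peptide of itch neurons (-0.57). The calls of Penk (adjusted p = 0.0254) and Nppb (adjusted p = 0.0223) were lost without 1 array. Penk was not called without whole array 070 or 084 or captured array 010, with an adjusted p of at most 0.0548, nor under quantile normalization (adjusted p = 0.0567). Nppb was not called without whole array 070 or 019 or captured array 003 or 014, with an adjusted p of at most 0.0869. The brightest member that was not called was Cpe, the carboxypeptidase that trims cleaved peptides, at 5068 ± 513 and 5705 ± 371 (0.17, adjusted p = 0.118).

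Promoters of peptide genes that were higher are shown. These genes were picked by that call, and in the same list 4 genes were lower and 7 were not called. Several of those that were higher are known targets of cyclic AMP signalling. It acts through the cyclic AMP response element TGACGTCA and its half-site TGACG. Whether the genes share a regulator was not tested. These motifs were chosen after the calls were known. RefSeq promoters (GRCm38.p6, 250 bases before to 50 after the start of the gene) were matched for 14 of the 17 genes by symbol, and both strands were searched; the half-site lies within the full element. Of all 32851 promoters, 20.8% hold TGACG and 1.79% hold TGACGTCA. TGACG was found in 6 of the 6 genes called higher, in 1 of the 3 matched genes called lower (Scg3) and in 1 of the 5 matched genes not called (Scg2). The full element was found in Pcsk1 and Chgb and in the uncalled Scg2. A match is a description of the letters and not a site. Printed here are the promoters of Tac1 (chr6:7554811-7555110, plus strand), Gal (chr19:3414495-3414794, minus strand), Pcsk1 (chr13:75089607-75089906, plus strand) and Chgb (chr2:132781392-132781691, plus strand), 5′ to 3′ on the strand of the gene, with TGACG or its reverse complement in capitals.
Tac1: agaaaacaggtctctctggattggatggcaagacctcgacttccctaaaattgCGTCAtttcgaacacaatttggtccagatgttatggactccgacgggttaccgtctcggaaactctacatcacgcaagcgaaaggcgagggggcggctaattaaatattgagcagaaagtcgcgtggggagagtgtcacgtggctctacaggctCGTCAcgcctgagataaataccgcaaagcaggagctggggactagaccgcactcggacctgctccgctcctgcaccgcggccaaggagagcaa
Gal: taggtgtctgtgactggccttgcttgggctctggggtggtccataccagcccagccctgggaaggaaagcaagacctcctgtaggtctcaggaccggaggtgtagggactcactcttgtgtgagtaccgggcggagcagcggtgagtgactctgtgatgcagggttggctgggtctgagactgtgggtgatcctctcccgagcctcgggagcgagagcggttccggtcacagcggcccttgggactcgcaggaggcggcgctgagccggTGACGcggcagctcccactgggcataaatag
Pcsk1: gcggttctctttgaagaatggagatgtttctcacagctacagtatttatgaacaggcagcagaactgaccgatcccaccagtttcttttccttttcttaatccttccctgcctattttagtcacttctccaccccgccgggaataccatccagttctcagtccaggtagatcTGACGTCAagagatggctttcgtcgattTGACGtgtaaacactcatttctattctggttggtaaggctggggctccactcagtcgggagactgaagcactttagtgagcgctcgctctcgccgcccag
Chgb: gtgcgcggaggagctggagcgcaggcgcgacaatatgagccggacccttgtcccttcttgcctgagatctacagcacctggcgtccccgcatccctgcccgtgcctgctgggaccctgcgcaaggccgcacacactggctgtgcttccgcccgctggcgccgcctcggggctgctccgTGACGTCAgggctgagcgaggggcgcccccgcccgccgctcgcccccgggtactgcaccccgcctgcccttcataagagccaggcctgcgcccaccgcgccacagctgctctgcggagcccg

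Genes of small-diameter nociceptors were split in the same way. Of 17 tested, 7 were higher (41.2%, against 22.9% of all genes), 5 were lower (29.4%, near the 25.4% of all genes) and 5 were not called. The median was -0.06, and the summed signal was 1.25 to 1.59 times that of whole ganglia. Tac1, Adcyap1 and Gal belong to the peptide list too, so the sums of both lists are not independent. The sign of the median was not stable: it was 0.391 with the filter on dim probe sets at the 60th percentile and -0.28 with the high-identifier block left out. Besides Tac1, Adcyap1 and Gal, the gene with the largest rise was Gfra3, the receptor for the neurotrophic factor artemin. It read 583, 482, 416, 460 and 400 in whole ganglia and 2238, 3102, 1333, 1441 and 2106 in captured neurons (log2 difference 2.04, SE 0.313, adjusted p = 7.82e-06). The captured arrays spanned more than 2-fold among themselves and all lay above the whole arrays. The sodium channel Scn10a, which carries the tetrodotoxin-resistant current of nociceptors, averaged 3979 ± 524 and 5023 ± 451 (0.34, SE 0.109, adjusted p = 0.0118), a call that quantile normalization removed (0.11, adjusted p = 0.335). Lower members were the complement regulator Cd55 (-2.42, from 307 ± 61.4 to 47.1 ± 3.2), the kinase Prkcd (-1.09), Ret, the signalling receptor for the GDNF family (-1.07), and Osmr, the receptor for oncostatin M (-0.89). Osmr was not called without captured array 003 (adjusted p = 0.0546). Fxyd2, a regulator of the sodium pump, averaged 3734 ± 215 and 3639 ± 695 (-0.06, adjusted p = 0.77).

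Of 14 genes of large-diameter afferents, 1 was higher (7.14%, against 22.9% of all genes), 6 were lower (42.9%, against 25.4%) and 7 were not called. The median was -0.396. The heavy neurofilament Nefh was the higher one, at 3508 to 3963 in whole ganglia and 4767 to 6055 in captured neurons (0.54, SE 0.087, adjusted p = 1.34e-05). Its partners Nefl (-0.92) and Nefm (-0.45) were lower. The potassium channel Kcna1 (-1.66), the calcium-binding protein Calb1 (-1.41), Ret (-1.07) and the lactate dehydrogenase subunit Ldhb (-1.04) were lower as well. Pvalb, the calcium-binding protein of muscle-spindle afferents, averaged 1162 ± 128 in whole ganglia and 1327 ± 623 in captured neurons (0.07, adjusted p = 0.799).

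Receptors of neurotrophic factors and cytokines counted 2 higher (18.2%, against 22.9% of all genes), 4 lower (36.4%, against 25.4%) and 5 not called of 11. The median was -0.289. Gfra3 rose while Ret, the receptor with which its family signals, was dim in both groups, at 52.6 ± 10.9 and 19.9 ± 9.8. Erbb3, the neuregulin receptor of Schwann cells, fell from 1054 ± 222 to 418 ± 46.1 (-1.29). Il6st, the signalling chain shared by a family of cytokine receptors, averaged 914 ± 100 and 833 ± 74.9 (-0.13, adjusted p = 0.356). The calls of Igf1r (0.35, adjusted p = 0.049) and Lifr (-0.46, adjusted p = 0.0222) were lost without 1 array, in 8 and 3 of the 10 cases, with an adjusted p of up to 0.146 and 0.0564; Lifr was lost without whole array 084 or 019 or captured array 014, and Igf1r without any array other than whole array 070 and captured array 006, without a filter and without trended and robust moderation.

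Voltage-gated channels counted 2 higher (9.09%, against 22.9% of all genes), 6 lower (27.3%, near the 25.4% of all genes) and 14 not called of 22, with a median of 0.066, or -0.237 with 1 higher and 9 lower without the high-identifier block. The potassium channel Kcnk1 (-2.05, from 917 ± 330 to 205 ± 46.7), the potassium channel subunit Kcnab1 (-1.63) and Cacna2d1, the calcium channel subunit that binds gabapentin (-1.26, SE 0.341), were called lower, with Kcna1. Kcnj9 was higher by its brighter probe set, of that block (0.98), and lower by the other (-0.57, adjusted p = 0.0363). Ligand-gated and sensory channels counted 1 higher (6.25%), 4 lower (25%, near the 25.4% of all genes) and 11 not called of 16. The ATP receptor P2rx4 was the higher one, at 426 to 612 in whole ganglia and 1377 to 2227 in captured neurons (1.63, SE 0.163, adjusted p = 9.65e-09). The GABA-A receptor subunit Gabra2 fell from 266 ± 19.99 to 41.1 ± 15.8 (-2.46), and Trpv2, a channel of the vanilloid family (-0.79), and the acid-sensing channel Asic2 (-0.47) were lower. The serotonin-gated channel Htr3a averaged 537 ± 57.1 and 548 ± 124 (0.01, adjusted p = 0.971).

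Synaptic vesicle and release genes counted 2 higher (11.1%, against 22.9% of all genes), 7 lower (38.9%, against 25.4%) and 9 not called of 18. The median was -0.297. The vesicle protein Syp was at 187 to 227 in whole ganglia and at 18.6 to 40.2 in captured neurons (-2.29, SE 0.183, adjusted p = 2.64e-10). The synaptotagmins, which sense calcium for vesicle fusion, did not move together. Syt2 rose from 1282 ± 122 to 2866 ± 489 (1.14), whereas Syt4 fell from 410 ± 64.0 to 102 ± 31.3 (-1.93) and Syt1 from 64.4 ± 13.1 to 19.8 ± 13.3 (-1.38). Syt1 lay under the pseudocount on captured arrays 003 and 008, so its size is not firm. Nsf, the ATPase that recycles fusion proteins, was lower (-0.96), with captured array 003 at 1113 and the other 4 at 424 to 578; without that array the difference was -1.18. Napb was higher by its brighter probe set (0.79) and lower by the other (-0.86). Dnm1, the dynamin of endocytosis, averaged 6609 ± 474 and 6668 ± 152 (0.02, adjusted p = 0.937).

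Genes of satellite glia and immature Schwann cells were split between bright members at similar signals in both groups and members that fell. Of 26 tested, 5 were higher (19.2%, against 22.9% of all genes), 12 were lower (46.15%, against 25.4%) and 9 were not called. The median was -0.251, and the summed signal of captured arrays, 0.854 to 1.05 times the whole-ganglion mean, overlapped that of whole arrays, 0.921 to 1.09. Apoe, the lipid carrier that satellite glia secrete, averaged 6148 ± 575 in whole ganglia and 7578 ± 489 in captured neurons (0.30, adjusted p = 0.0112), a call that quantile normalization removed (0.10, adjusted p = 0.284). Fabp7, the brain fatty acid binding protein and a marker of satellite glia, read 2010, 1993, 2615, 2978 and 1535 in whole ganglia and 1704, 2692, 1819, 1662 and 1668 in captured neurons (-0.21, SE 0.196, adjusted p = 0.401). The groups overlapped, and captured array 008 was the highest of its group. The gap junction protein Gja1 averaged 899 ± 158 and 1035 ± 139 (0.21, adjusted p = 0.502). The protease inhibitor Cst3 (0.64 and 1.42 by its probe sets) and the paraoxonase Pon2 (0.75) were higher. Glul, the glutamine synthetase of glia, was higher by its brighter probe set (0.52) and lay at -0.64 (adjusted p = 0.0633) by the other, and Clu was called higher by one (0.71) and lower by the other (-0.33, adjusted p = 0.0425); the higher reading of both genes came from the high-identifier block.

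In the same list other genes fell far. Beside Sparcl1, the lipid carrier Apod fell from 373 ± 72.9 to 43.5 ± 7.2 (-2.80), the phosphatase Ptprz1 from 117 ± 10.7 to 14.7 ± 9.6 (-2.37) and the water channel Aqp4 from 93.0 ± 10.8 to 16.4 ± 4.8 (-1.92). Ptprz1 lay under the pseudocount on captured arrays 003 and 006, so its size is not firm. Sox10, the transcription factor of all peripheral glia, was lower by 1.21 on the log2 scale, from 454 ± 94.8 to 190 ± 41.7.

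Of 14 myelin genes tested, 7 were lower (50%, against 25.4% of all genes), 2 were higher and 5 were not called, with a median of -0.512, and the summed signal was 0.666 to 0.768 times that of whole ganglia with no overlap. Mbp, myelin basic protein, read 2801, 2213, 2473, 1739 and 2104 in whole ganglia and 268, 306, 551, 291 and 514 in captured neurons by its brighter probe set (-2.57, SE 0.174, adjusted p = 2.74e-11). The other Mbp probe set averaged 306 and 337 (0.13, adjusted p = 0.566). Pmp22, a compact myelin protein, fell from 4011 ± 452 to 2491 ± 427 (-0.70), Mal, a myelin raft protein, from 500 ± 79.3 to 162 ± 35.0 (-1.58), and Egr2 from 491 ± 117 to 56.8 ± 27.5 (-3.01). Mag was higher by its brighter probe set, of the high-identifier block (0.46), and lower by the other, at 62.1 and 9.35 (-1.80, adjusted p = 3.24e-07). The captured mean of that other probe set lay under the pseudocount, so its size is not firm. The tetraspanin Cd9 was higher (0.58). Mobp, a myelin-associated protein, read 266, 474, 449, 142 and 164 in whole ganglia and 156, 3.78, 5.12, 4.04 and 2.62 in captured neurons, and it was called lower (adjusted p = 8.19e-07). Only captured array 003 reached the range of the whole arrays. The signals of the other captured arrays lay under the pseudocount, so no fold is given.

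Fibroblast and matrix genes showed the broadest fall of any list: 25 of 39 were lower (64.1%, against 25.4% of all genes), 1 was higher and 13 were not called, with a median of -0.767. Their summed signal was 0.405 to 0.537 times that of whole ganglia. Sparc read 1990, 1482, 1798, 1284 and 1521 in whole ganglia and 119, 203, 270, 192 and 199 in captured neurons (-2.99, SE 0.187, adjusted p = 6.09e-12). All captured arrays were several-fold below all whole arrays. The fibrillar collagen genes Col3a1 (-2.65) and Col1a1 (-0.72) were lower by both of their probe sets, whereas Col1a2 was lower by its brighter probe set (-2.89) and differed by 0.17 (adjusted p = 0.474) by the other. The proteoglycan Dcn stayed bright, at 5078 ± 1063 and 3394 ± 1311 (-0.65, adjusted p = 0.109), and was called lower under quantile normalization (-0.85, adjusted p = 0.0246), in the DRG arrays alone and with array weights. The growth factor binding protein Igfbp2 was the higher member (0.69).

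Vascular genes counted 0 higher (against 22.9% of all genes), 10 lower (45.45%, against 25.4%) and 12 not called of 22. The median was -0.466. The drug transporter Abcb1a of the blood-nerve barrier (-1.99), the caveolar protein Cav1 (-1.95), von Willebrand factor Vwf (-1.85) and Cd34 (-1.14) were the lowest. Abcb1a lay under the pseudocount on captured arrays 003 (4.12) and 008 (10.3), so its size and its place in this order are not firm. The endothelial adhesion molecule Pecam1 averaged 118 ± 19.2 and 128 ± 21.4 (0.11, adjusted p = 0.618). The smooth muscle actin Acta2 averaged 115 ± 53.3 and 55.0 ± 44.7 (-1.12, adjusted p = 0.0406), and this call was lost in 6 of 10 cases when 1 array was left out, with an adjusted p of up to 0.151: whole arrays 084, 019 and 026 and captured arrays 010, 014 and 006. It was also lost with the same median on every array, under quantile normalization, without a filter and with a pseudocount of 1 (adjusted p of 0.0526 to 0.0573).

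Macrophage and antigen-presentation genes counted 0 higher (against 22.9% of all genes), 13 lower (56.5%, against 25.4%) and 10 not called of 23. The median was -0.627 and the summed signal 0.592 to 0.659 times that of whole ganglia. Cd74, the invariant chain of MHC class II, read 511, 412, 428, 421 and 261 in whole ganglia and 87.2, 96.3, 108, 130 and 98.9 in captured neurons (-1.83, SE 0.179, adjusted p = 6.92e-09). Every whole array stood above every captured array. The class II chains H2-Aa (-1.71) and H2-Ab1 (-1.40) and the Toll-like receptor partner Ly86 (-1.54) fell with it. The complement gene C1qa was dim in both groups, at 27.8 ± 19.3 and 25.8 ± 13.8 (-0.02, adjusted p = 0.962). Of 10 genes of lymphocytes, mast cells and granulocytes, 0 were higher and 3 were lower (30%, near the 25.4% of all genes). These were the calcium-binding protein S100a8 of granulocytes (-1.78), lactoferrin Ltf (-1.10) and the mast cell chymase Cma1 (-0.90). Ltf was not called without captured array 006 (adjusted p = 0.0553). It lay under the pseudocount on captured arrays 003 and 006, so its size is not firm.

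Haemoglobin, which marks blood left in the tissue, was lower in captured neurons. Hba-a1 averaged 393 ± 111 and 130 ± 45.97 (-1.53, SE 0.447, adjusted p = 0.00685), Hbb-b2 160 ± 67.2 and 27.3 ± 30.7 (-2.45), and the carbonic anhydrase Car2, which red cells and sensory neurons both make, 824 ± 56.1 and 262 ± 74.2 (-1.66). Hbb-b2 lay under the pseudocount on captured arrays 008, 010 and 006, so its size is not firm. Of 5 erythroid genes, 3 were lower (60%, against 25.4% of all genes) and 1 was higher (20%, near the 22.9% of all genes). The higher one, Rhag, was at 34.5 ± 8.7 and 56.6 ± 21.6. Its call was lost in 5 of 10 cases without 1 array (adjusted p up to 0.136): whole arrays 070 and 037 and captured arrays 003, 008 and 014. It was also lost in the DRG arrays alone. Of 16 genes of skeletal muscle, fat and epithelium, 3 were higher (18.75%, near the 22.9% of all genes) and 1 was lower (6.25%, against 25.4%). The lower one was the tropomyosin Tpm1 (-1.01). Of the higher ones, Eno3 (0.35) kept its call when 1 array was left out. Lep (0.48) lost it in 6 of 10 cases: whole arrays 070, 026 and 037 and captured arrays 003, 008 and 010. Tnnt1 (0.67, read on the high-identifier block) lost it in 8, all but whole array 026 and captured array 006, with an adjusted p of up to 0.162 for Lep and 0.114 for Tnnt1.

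**Figure D3:**
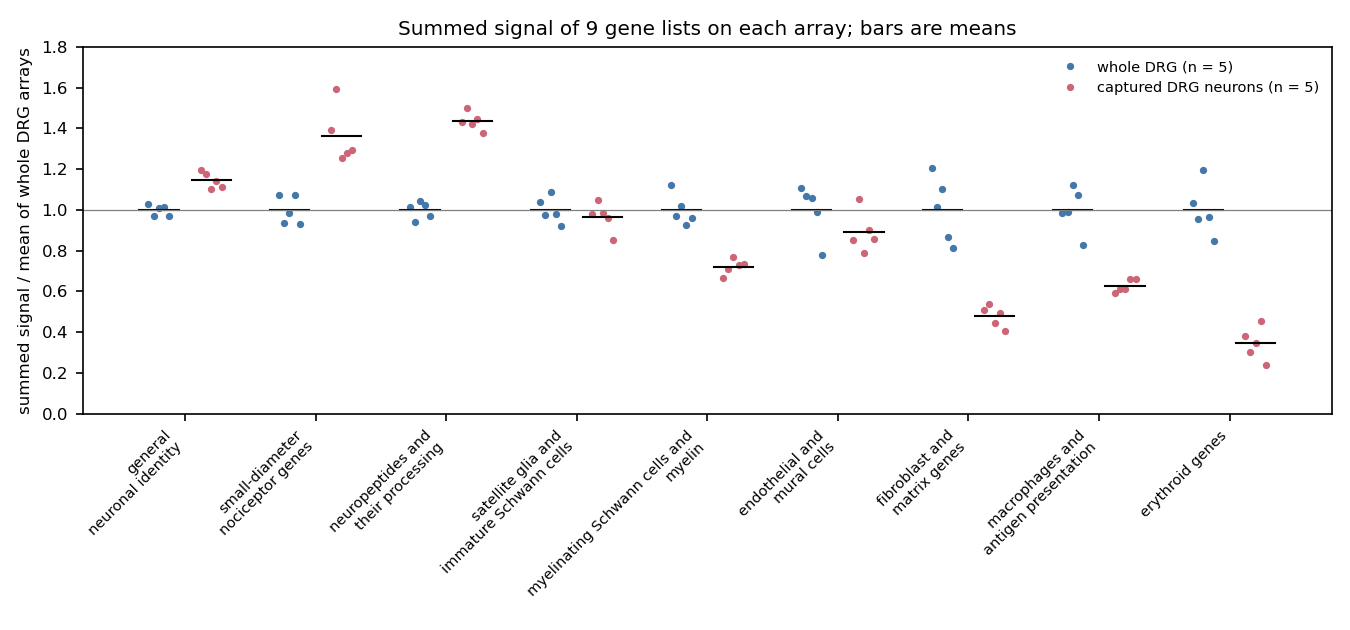
Summed scaled signal of 9 gene lists on each array, divided by the mean of the 5 whole DRG arrays; points are arrays and bars are means. Captured arrays lie above the whole arrays for neuronal, nociceptor and peptide genes and overlap them for satellite glial and vascular genes. Captured arrays lie below the whole arrays for myelin, matrix, macrophage and erythroid genes. Bright members weigh most in each sum, and the nociceptor and peptide lists share Tac1, Adcyap1 and Gal.

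Of 19 genes that sensory neurons induce after nerve injury, 10 were higher (52.6%, against 22.9% of all genes), 2 were lower and 7 were not called, with a median of 0.469. The tubulin regulator Stmn4 rose from 132 ± 21.8 to 422 ± 104 (1.57, SE 0.178), and Gal, Gap43 and the growth arrest gene Gadd45a (0.98) were the next. The members that fell were Cacna2d1 and Atf3, the transcription factor used as a marker of axotomised neurons (-0.49 by its brighter probe set, adjusted p = 0.0209, and lower by the other as well). The call of the brighter Atf3 probe set was lost without whole array 070 or captured array 014, with an adjusted p of up to 0.0726, and under quantile normalization (adjusted p = 0.0948). Bdnf averaged 850 ± 199 and 937 ± 135 (0.16, adjusted p = 0.657).

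Immediate early and stress genes counted 9 higher, 7 lower and 18 not called of 34, near the share of all genes. Gadd45g (1.40), Gadd45a (0.98), the AP-1 member Junb (0.94) and Btg2 (0.72) were higher. The inducible heat shock protein Hspa1b fell from 266 ± 82.8 to 44.0 ± 11.6 (-2.30), and the kinase Sgk1 (-1.32), Ier3 (-0.98) and the nuclear receptor Nr4a1 (-0.86) were lower. Of 23 interferon-responsive genes, 7 were lower (30.4%, near the 25.4% of all genes) and 2 were higher (8.7%, against 22.9%). Among the lower ones were Ifit2 (-2.22), Gbp2 (-1.57), Ifi204 (-1.31) and Usp18, whose captured mean of 7.44 lay under the pseudocount. Ifi204 lay under the pseudocount on captured arrays 010 and 014, so its size is not firm. The higher ones were Ifi35 (2.18) and Irf1 (0.67).

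Subunits of the respiratory chain, the mitochondrial complexes that drive ATP synthesis, counted 22 higher (37.9%, against 22.9% of all genes), 7 lower and 29 not called of 58, with a median of 0.2 and a summed signal 1.18 to 1.42 times that of whole ganglia. The complex I subunit Ndufa2 rose from 237 ± 34.3 to 617 ± 82.8 (1.34, SE 0.135), and Cox7b (1.34) and Cox6c (1.18) of complex IV and Uqcr10 (1.12) of complex III were next. The lowest were the complex II subunits Sdhd (-1.61) and Sdha (-0.81) and the complex I subunits Ndufb8 (-1.24) and Ndufb9 (-0.93). Atp5a1 of the ATP synthase averaged 5259 ± 180 and 5356 ± 148 (0.03, adjusted p = 0.794) and was called lower under quantile normalization (-0.19). Cytosolic ribosomal proteins counted 9 higher (37.5%), 6 lower (25%, near the 25.4% of all genes) and 9 not called of 24, from Rps13 (1.13) to Rps3a1 (-1.35). Proteasome subunits counted 10 higher (28.6%), 11 lower (31.4%) and 14 not called of 35, from Psmd9 (1.01) to Psmd6 (-1.56).

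Sterol and fatty acid synthesis counted 5 higher and 5 lower of 23 (21.7% each, near the 22.9% and 25.4% of all genes). Fatty acid synthase Fasn (1.16) and the sterol dehydrogenase Nsdhl (-1.49) were at the ends. Of 20 cell division genes, 0 were higher and 2 were lower (10%, against 25.4% of all genes), Mcm7 (-0.88) and Pcna (-0.49). Pcna was not called without captured array 006 (adjusted p = 0.0536). Genes often used as references were called in both directions: of 12, 3 were higher (25%, near the 22.9% of all genes) and 6 lower (50%, against 25.4%). Hprt fell from 2248 ± 180 to 1233 ± 77.4 (-0.86) and Ywhaz from 3969 ± 688 to 1319 ± 225 (-1.58), whereas Eef1a1 averaged 8003 ± 543 and 8148 ± 534 (0.03, adjusted p = 0.842) and was called lower under quantile normalization (-0.25). Actb was higher by the brighter of its 2 tested probe sets (0.87) and lower by the other (-0.79, adjusted p = 0.00378). The 3′ control probe set of beta actin read lower in captured neurons, at 8534 ± 486 in whole ganglia and 4826 ± 860.

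**Figure D4:**
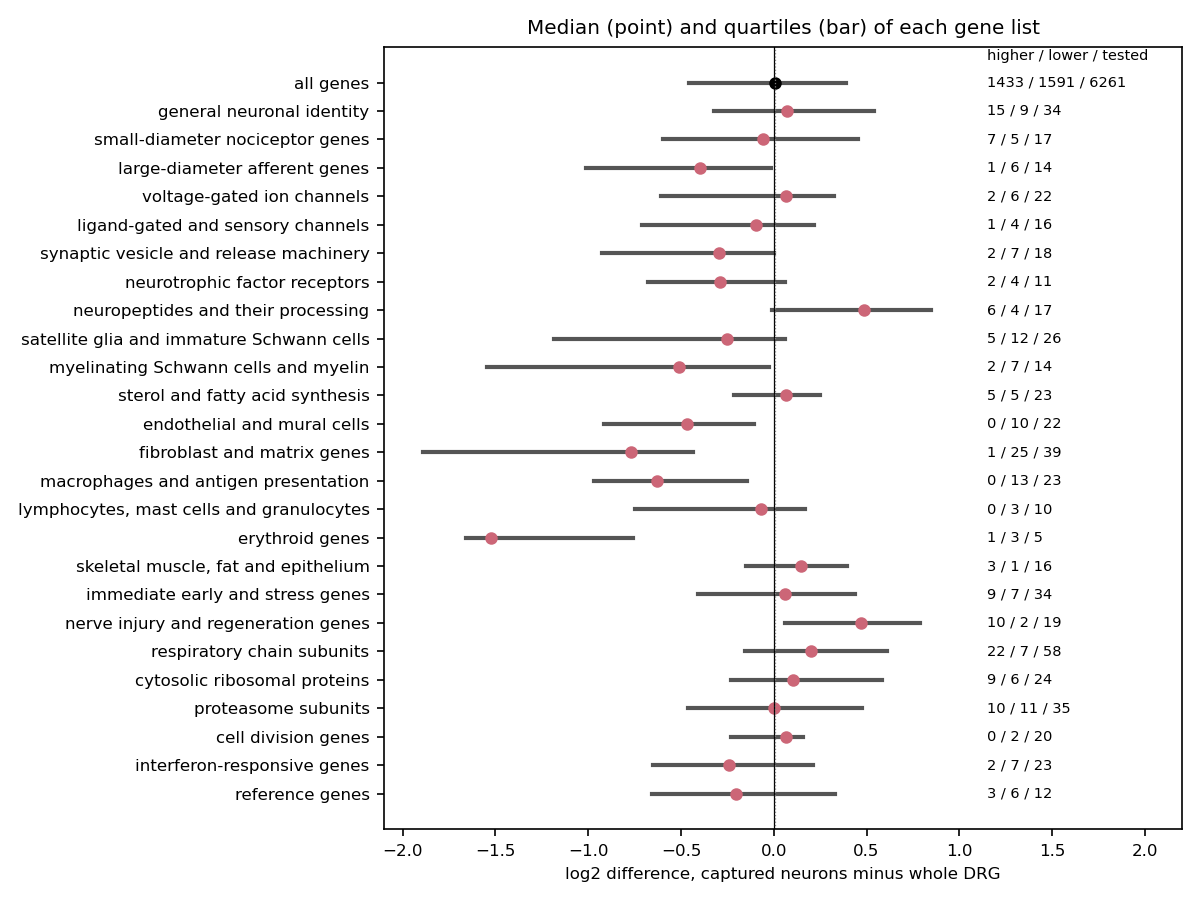
Median (point) and quartiles (bar) of the log2 difference, captured neurons minus whole DRG, for all genes and for each of the 25 gene lists; the numbers at the right count members called higher, called lower and tested. Matrix, erythroid, macrophage, myelin and vascular lists lie to the left, and peptide and injury lists to the right.

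Captured samples varied more among themselves than whole ganglia. The median SD of log2 signal over genes was 0.239 in captured and 0.191 in whole arrays, and it was larger in captured arrays for 62.9% of 6261 genes. Among genes above the median signal, the spread was largest for the Polycomb protein Bmi1, which read 1077, 388, 617, 165 and 757 on captured arrays 003, 008, 010, 014 and 006. The splicing factor Tra2b (1579, 781, 730, 352 and 1308) and the translation factor Eif3j1 (413, 216, 316, 145 and 735) were lowest on the same array, 014, as was Gatm, the enzyme of creatine synthesis (395, 186, 191, 95.4 and 561). Irs2, the insulin receptor substrate, ran from 242 to 923, and the endocytic protein Sh3gl3 from 66.0 to 325. Of these 6 genes, Gatm (-2.66), Irs2 (1.66) and Eif3j1 (-1.04) passed the test against whole ganglia.

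The same comparison was made in the NG, and the difference between the ganglia's capture differences was tested. The capture difference of 1210 of 6261 genes (19.3%) differed between DRG and NG, with 694 above the NG value (11.1%) and 516 below it (8.24%). Captured samples of both ganglia share the numbers 003, 008, 010 and 014, and whole samples the number 026; whether a number marks 1 animal is not stated. Over all genes the log2 differences of both ganglia correlated at r = 0.691, a description across genes that are not independent and that share array type and 3′ bias. Of 2175 genes called in both ganglia, 2026 had the same sign and 149 opposite signs.

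Satellite glial genes were among those that differed: for 8 of 26 the DRG difference lay above the NG difference and for 1 below it, against 11.1% and 8.24% of all genes. Gja1 was not called in DRG, at 899 ± 158 and 1035 ± 139, and fell in NG from 971 ± 237 to 225 ± 116 (difference of the differences 2.37, SE 0.327, adjusted p = 1.2e-05; its other probe set gave 1.16, adjusted p = 0.00435). Apod fell in both ganglia, and the difference between them was called (adjusted p = 6.43e-06); its captured NG signal, 11.7 ± 5.94, was at the pseudocount, so no size is given. For neuropeptides, 7 of 17 lay above and 2 below. Tac1 rose in DRG but in NG went from 700 ± 270 to 338 ± 280 (-1.38, adjusted p = 0.00231), a difference of 2.90 (SE 0.531, adjusted p = 0.000407). For large-diameter genes 6 of 14 lay above and 0 below, and Nefh rose by 0.54 in DRG and fell by 0.92 in NG (difference 1.46, adjusted p = 2.25e-09). Of matrix genes, 3 of 39 lay above and 1 below. Other lists had such members too. For respiratory chain subunits 18 of 58 lay above and 3 below, and for ribosomal proteins 8 of 24 and 0. For vascular genes 7 of 22 lay above and 2 below, and for myelin genes 5 of 14 and 1. Synaptic genes went the other way, with 2 of 18 above and 4 below. A shift above NG was thus not particular to the lists named first.

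The genes whose capture difference in DRG was furthest above that in NG on the fitted scale were Hif1a, Scn1a, Rxrg, Aldh1a1, Scp2 and Npy2r. Hif1a, the oxygen-regulated transcription factor, averaged 1127 ± 254 and 857 ± 185 in whole and captured DRG but 1387 ± 265 and 70.3 ± 23.03 in whole and captured NG (difference 3.74, SE 0.258, adjusted p = 3.05e-10). Its other probe set gave 3.22 and was called lower in DRG (-1.09). The sodium channel Scn1a, read on the high-identifier block, averaged 771 ± 125 and 802 ± 163 in DRG and fell from 477 ± 176 to 26.3 ± 8.1 in NG (difference 3.72). Its other probe set gave 2.01 and was called lower in DRG (-0.64). The retinoid receptor Rxrg rose from 20.6 ± 16.5 to 96.1 ± 28.9 in DRG and fell from 45.2 ± 9.6 to 5.58 ± 1.42 in NG (adjusted p of the difference 1.97e-07). The captured NG signal lay under the pseudocount, as did the signals of whole DRG arrays 084, 019 and 026. The size of its rise in DRG is thus not firm either. The fitted difference ran from 5.27 to 2.34 with pseudocounts of 1 and 32. Npy2r, a receptor of neuropeptide Y read on the high-identifier block, averaged 1334 ± 308 and 1999 ± 566 in DRG and fell from 2280 ± 959 to 348 ± 141 in NG (difference 3.17; 1.52 by its other probe set, adjusted p = 0.0463). The lipid transfer protein Scp2 gave 3.23 and 0.98 by its probe sets. Aldh1a1, which makes retinoic acid, gave 3.28 by its brighter probe set and -0.45 (adjusted p = 0.487) by its dim one. By the brighter one, its captured NG signal of 18.46 ± 22.65 was near the pseudocount, so the size is not firm. In DRG it was called lower (-1.18), a call lost with a pseudocount of 1 (adjusted p = 0.05).

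Furthest below on the fitted scale were Mobp, Adcy8, Man1a, Xist, Mef2a and Gnb4. Mobp lay under the pseudocount in both NG groups, at 3.43 ± 1.37 and 3.78 ± 1.61, and on 4 of the 5 captured DRG arrays. Its difference between ganglia was called (adjusted p = 0.000259), but the size of the difference, and so its place in this order, is set by the pseudocount. Adcy8, a calcium-stimulated adenylyl cyclase, fell from 295 ± 45.2 to 169 ± 41.1 in DRG and rose from 178 ± 20.7 to 801 ± 193 in NG (difference -2.86, SE 0.228, adjusted p = 2.01e-09). The transcription factor Mef2a did likewise, from 1283 ± 144 to 677 ± 133 and from 579 ± 66.5 to 1517 ± 399 (difference -2.26). The mannosidase Man1a fell from 61.8 ± 19.6 to 5.31 ± 1.67 in DRG and rose from 160 ± 48.5 to 276 ± 134 in NG (adjusted p of the difference 5.68e-06). The captured DRG signals of both its probe sets lay under the pseudocount, and the fitted difference ran from -4.0 to -1.91 with pseudocounts of 1 and 32. The G protein subunit Gnb4 fell in DRG (-2.20) and differed by 0.01 in NG (difference -2.21, adjusted p = 0.00733). Its signals on captured DRG arrays 008 and 010 were near the pseudocount, at 11.87 and 11.14, so the size is not firm. Xist, the RNA that silences an X chromosome in females, averaged 492 ± 66.5 and 196 ± 53.7 in DRG and 312 ± 74.2 and 673 ± 297 in NG (difference -2.31), and the sources used here do not give the sex of the animals.

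**Figure D5:**
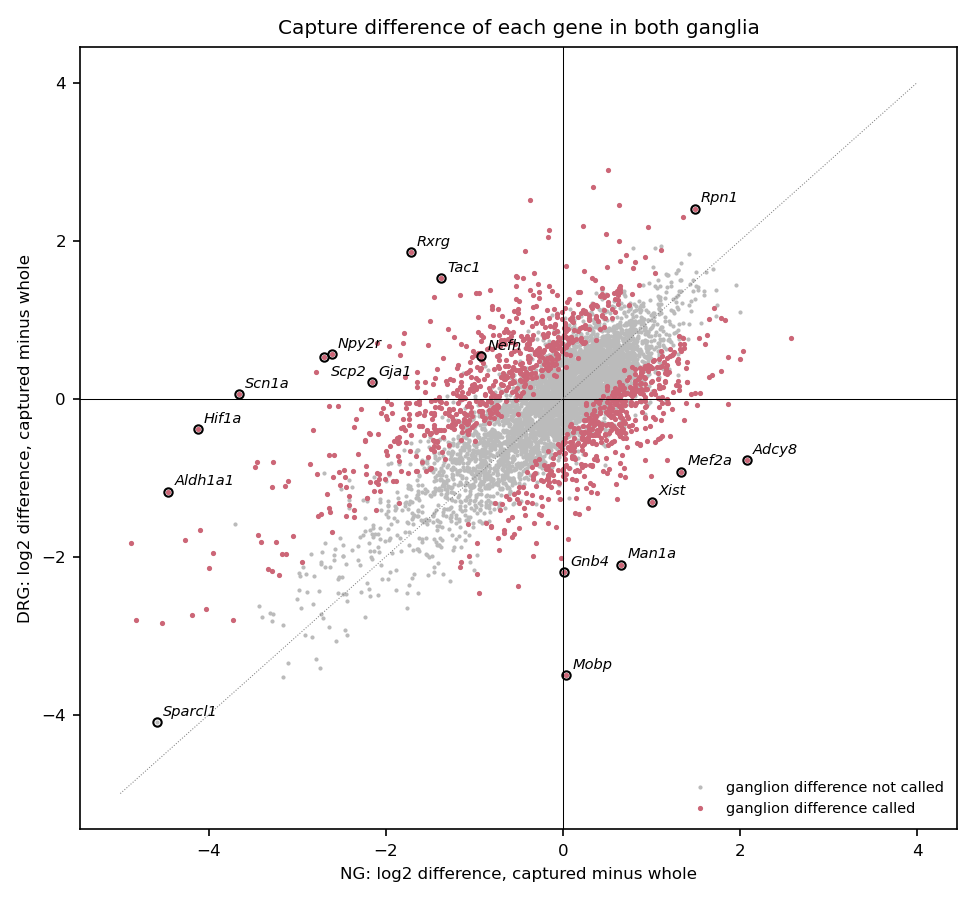
Log2 capture difference (captured minus whole) of each of 6261 genes in NG (horizontal) and DRG (vertical), with genes whose difference between ganglia was called in colour, named genes ringed and the line of equality dotted. Hif1a, Scn1a and Aldh1a1 lie at the left with far lower values in NG, Mobp and Man1a lie below, and Sparcl1 lies near the line.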

How the data were processed

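RNA of captured neurons and whole ganglia was hybridised to 1-colour MG-U74Av2 arrays. The deposited values are intensities, with 1 signal for each probe set on each array. The submitters' processing notes name MAS5, with no version in the sources used here. The signals reflect the 3′ end of transcripts, so the labelling method bears on every comparison of captured with whole samples. A common trimmed mean (2% trimmed at each end) was set on every array. A pseudocount of 11.37, the 20th percentile of signal, was added before log2. Of 12488 probe sets, 66 controls were left out, and 8309 above the 40th percentile of their own array on at least 5 arrays were tested. Linear models were fitted with limma 3.58.1 in R 4.3.3 over 22 arrays (5 captured and 5 whole DRG, 5 captured and 7 whole NG) with no covariate, with trended and robust moderation and Benjamini-Hochberg adjustment over all probe sets, at a threshold of 0.05. The scripts were tested on simulated data. Precision is limited by the number of arrays, and arrays give no count of molecules.

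Symbols came from the platform annotation: 10855 probe sets had 1 gene symbol, 396 several and 1237 none, and genes were named only from the first. A gene was represented by its probe set with the highest mean log2 signal. Named genes were up to 12 per direction with the largest differences among called, bright genes without overlap, up to 4 per direction and the brightest uncalled gene of each list, a set of markers, up to 6 per direction that differed most between ganglia, and the 6 with the largest spread among captured arrays. Chga, Chgb, Scg2, Sox10, Nefl and Nefm were named after their values were seen. The members and the 25 gene lists were chosen with earlier results of these data known. Ratios of 3′ over 5′ control signals were compared by exact permutation tests. Alternatives were other scalings, filters, pseudocounts, moderation and array weights, the DRG arrays alone, other probe sets of a gene, leaving out each array, and, chosen after seeing the data, leaving out the high-identifier probe sets and the sample number shared by DRG and NG as a random block.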

Additional observations from a re-analysis of the deposited data

Results flagged for a closer look

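In 20 of 410 sets of 5 arrays looked at (4.88%), 1 array lay far from the other 4 by Dixon's criterion, which chance meets in about 1 set in 20. Of these, 8 were in whole ganglia and 12 in captured neurons, 6 of them on captured array 003. On captured array 003, the signals that stood apart were Alas2 at 25.28 on array 003 (the other 4 at 34.94 to 37.88), Egr2 at 9.499 on array 003 (the other 4 at 56.67 to 75.54), Mobp at 156 on array 003 (the other 4 at 2.619 to 5.116), Nsf at 1113 on array 003 (the other 4 at 424.2 to 578.2), Rasd1 at 495.9 on array 003 (the other 4 at 258.3 to 309.8) and Rpl37a at 543.4 on array 003 (the other 4 at 358.3 to 389.3). On other captured arrays they were Cpeb2 at 91.88 on array 006 (the other 4 at 32.19 to 48.06), Dhcr7 at 174.8 on array 008 (the other 4 at 90.55 to 108.4), Fabp7 at 2692 on array 008 (the other 4 at 1662 to 1819), Gal at 319 on array 010 (the other 4 at 498.4 to 535), Psmd6 at 718.7 on array 014 (the other 4 at 461 to 511.4) and Usp18 at 11.22 on array 014 (the other 4 at 5.924 to 7.141). In whole ganglia they were Cacna2d1 at 796 on array 070 (the other 4 at 535.2 to 600.2), Gap43 at 2668 on array 026 (the other 4 at 2070 to 2166), Hspa1b at 412.1 on array 037 (the other 4 at 213.1 to 247), Htr3a at 437.4 on array 019 (the other 4 at 540.9 to 575.5), Igfbp2 at 146 on array 070 (the other 4 at 100.4 to 109.8), Nsg2 at 1289 on array 026 (the other 4 at 1056 to 1113), Psmd5 at 1357 on array 037 (the other 4 at 1608 to 1705) and Sdhd at 1457 on array 019 (the other 4 at 997.8 to 1074). No cause of these readings was tested.

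The capture difference differed between DRG and NG for 81 of the 205 named genes, by the test of the difference itself in limma. Among all 6261 genes the share was 19.3%. Named genes were picked in part by this test and in part for large differences, so the 2 shares are not comparable. The 12 with the largest fitted differences are given here. Those with the higher DRG value were Hif1a (3.74), Scn1a (3.72), Rxrg (3.57), Aldh1a1 (3.28), Scp2 (3.23) and Npy2r (3.17), on the log2 scale. Those with the lower DRG value were Mobp (-3.53), Adcy8 (-2.86), Man1a (-2.76), Xist (-2.31), Mef2a (-2.26) and Gnb4 (-2.21). The sizes for Mobp, Man1a and Rxrg rest on signals under the pseudocount and have no fixed value. That for Aldh1a1 rests on a captured NG signal near the pseudocount, 18.46 ± 22.65. That for Gnb4 rests in part on captured DRG arrays 008 and 010, near the pseudocount at 11.87 and 11.14.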

How the results depend on the processing

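No paired analysis was possible because the captured and whole DRG samples share no sample number. Across ganglia, the deviations of same-numbered DRG and NG arrays from their group means correlated at -0.094 to 0.109. Those of differently numbered arrays correlated at -0.277 to 0.232. Such values cannot decide whether a number marks 1 animal, because spread between arrays can hide a shared source. With that number as a random replicate block, chosen after seeing the data, 1901 probe sets were higher, 2018 lower and 1486 different between ganglia. No list median moved beyond the spread between replicates. The correlation within a block was estimated at -0.0214, so this fit could hardly differ from the main one, and the unchanged counts decide nothing. The numbers of probe sets called stayed within 1.5 times under every alternative, at 1671 to 1889 higher, 1870 to 1975 lower and 1316 to 1427 different between ganglia when 1 array was left out. The share of calls that were higher was 48.5%, 53.7% with the same median on every array and 53.1% under quantile normalization. Of 170 named genes called, 146 kept their call and direction under each alternative that tested them; 16 were not tested with the filter at the 60th percentile. This leaves aside other probe sets of a gene, except where leaving out the high-identifier block brought in another one. Of 36 called genes with another one tested, 8 had it called in the opposite direction (Actb, Clu, Fdps, Kcnj9, Mag, Mvk, Napb and Prph). A further 12 had one that was not called. Some of these genes, among them Clu, Kcnj9, Mag and Prph, were already outside the 146. List medians that moved by more than the spread between replicates were as follows. With the same median on every array they were 0.119 for neuronal, 0.114 for voltage-gated and -0.241 for neurotrophic receptor genes, the last -0.238 under quantile normalization. Without a filter they were -0.235 for synaptic, -0.224 for neurotrophic receptor, 0.266 for peptide, -0.398 for myelin, -0.187 for vascular, -0.342 for macrophage, -0.698 for erythroid, 0.16 for injury and -0.043 for cell division genes. With the filter at the 60th percentile they were 0.391 for nociceptor, -0.139 for satellite glial, -0.62 for myelin, -0.852 for macrophage, 0.347 for muscle, fat and epithelial and -0.041 for cell division genes. Macrophage genes were at -0.759 with a pseudocount of 1 and -0.499 with 32, and satellite glial genes at -0.337 with array weights. In DRG arrays alone, neuronal genes were at 0.026 and cell division genes at -0.012. Of the named genes, 8 gained a call in the DRG arrays alone and 1 lost it. Over all probe sets, neuronal genes were at 0.141, voltage-gated at -0.224 and sterol genes at -0.079. Without the high-identifier probe sets, an alternative chosen after seeing the data, they were -0.015 for neuronal, -0.237 for voltage-gated, -0.697 for myelin and -0.794 for macrophage genes. Leaving out 1 array, medians ran from 0.044 to 0.113 for neuronal, 0.01 to 0.118 for voltage-gated, -0.324 to -0.223 for synaptic, -0.348 to -0.237 for neurotrophic receptor, -0.323 to -0.136 for satellite glial and -0.032 to 0.106 for cell division genes. Signs turned under quantile normalization for Atp5a1 (-0.19) and Eef1a1 (-0.25). They turned without the high-identifier probe sets for Clu (-0.33), Glul (-0.64), Kcnab2 (-1.01), Kcnj9 (-0.57), Mag (-1.80), Pithd1 (-0.01), Prph (-0.54), Rpl10a (-0.07) and Scn1a (-0.64), where another probe set of the gene is read instead; the cause was not tested. Dim probe sets limit what can be seen: a signal near the pseudocount gives no fold. The planned description of the capture difference by transcript length was not run, because no transcript lengths were used here.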

Other observations

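Probe sets with identifiers from 161002 to 162504 were read higher in captured samples of both ganglia. Their median log2 difference was 0.311 in DRG and 0.382 in NG, against -0.009 and -0.035 for the other probe sets. They were dimmer, with a median signal of 86.5 in whole and 107 in captured DRG, against 187 and 164. In 458 genes read by probe sets of both kinds, the probe set of the block gave the higher difference in 354 (77.3%), by a median of 0.447. Of the named genes, 13 were read on the block.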
